A study of Mus musculus with 4 samples.

Results

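The GATA transcription factors and the FOG cofactors that bind them were followed in Flk-1 positive cells sorted by an Etv2 reporter. The set holds 8 genes, chosen by symbol: Gata1, Gata2, Gata3, Gata4, Gata5, Gata6, Zfpm1, which encodes FOG1, and Zfpm2, which encodes FOG2. All 8 were measured, among 18193 genes in all, on 15 probe sets that the platform annotation assigns to a single gene. Each gene is described by its brightest probe set, and its other probe sets are given beside it. The arrays hold total RNA from embryonic stem cells of the mouse TT2 line that carried a Venus fluorescent reporter knocked into 1 allele of Etv2, so every sample was heterozygous for the knock-in. The cells were grown for 5 days, per the sample labels, on OP9 stroma, a line from mouse bone marrow, while the series text gives 4 to 5 days. Cells positive for Flk-1, a VEGF receptor and the product of Kdr, were sorted by Venus into Flk-1+/Etv2- and Flk-1+/Etv2+ populations. Each population has 2 arrays, which the labels number 1 and 2. The labels name 1 cell line and do not give a culture for each array, and the p-values therefore reflect array-to-array spread that may be technical. Values are log2 expression units, and differences are positive minus negative with the standard error (SE) of the limma fit and its 95% interval.

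GATA factors are zinc finger proteins that bind the DNA sequence from which they take their name. Gata1, Gata2 and Gata3 act chiefly in blood, with Gata2 also in endothelium and Gata3 in T cells and ectoderm, while Gata4, Gata5 and Gata6 act in heart, lateral mesoderm and endoderm. FOG proteins do not need to bind DNA themselves; they attach to the amino-terminal zinc finger of a GATA factor and recruit corepressors such as the NuRD complex. FOG1 is the partner of GATA1 in red cells and megakaryocytes, and FOG2 is best known as the partner of GATA4 in the heart.

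On the brightest probe set of each gene, the FOG2 gene Zfpm2 showed the widest difference of the family and was 2.31-fold higher in the Etv2-Venus positive cells, and Gata2 was 1.70-fold higher. With the probe sets of a gene averaged, Gata2 differed by 0.83 and Zfpm2 by 0.71. Gata4, Gata3 and Gata6 were lower in the positive cells by 0.70, 0.48 and 0.38 log2 units. Gata1 and Zfpm1 were slightly higher with intervals that reached below 0, and Gata5 was dim and overlapped between the populations. No member passed a limma adjusted p of 0.05 over all genes, where 0% of the 18193 genes passed in either direction, and the smallest adjusted p on the array was 0.067. At an unadjusted p under 0.05 stood 2 members on the higher side and 3 on the lower side, against 7.07% and 4.64% of all genes, or 1287 and 844. With the arrays centred on their medians that split over all genes was 1535 and 612. For 7 of the 8 members the populations had arrays apart, without overlap, against 39.5% of all genes. Of these 4 were higher and 3 lower, beside 22.4% and 17% of all genes. Of the 6 members averaging 6 log2 units or more, all had arrays apart, against 44.7% of the genes at that level. The median over the 8 members was 0.05, beside 0.01 for all genes, since the members went both ways.

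**Figure D1:**
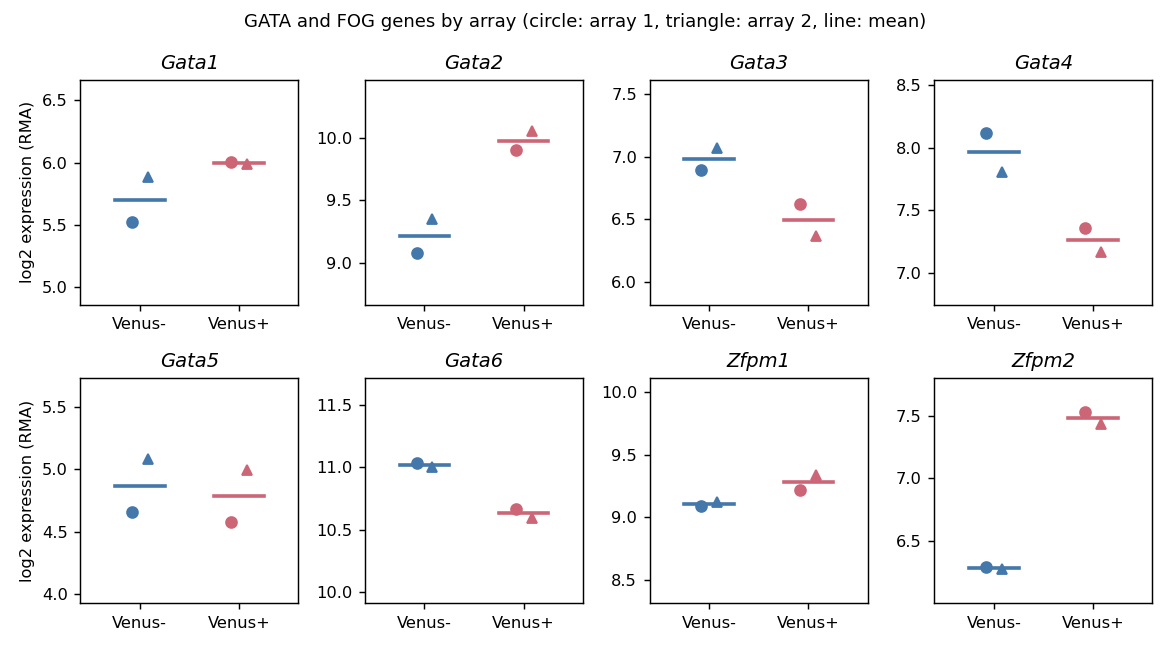
The 4 array values (log2 RMA units) of each of the 8 genes, in Venus negative (blue) and Venus positive (red) cells; circles are arrays numbered 1, triangles arrays numbered 2 and lines the group means, and all panels span the same number of log2 units. The positive arrays lie above the negative ones for Gata1, Gata2, Zfpm1 and Zfpm2, below them for Gata3, Gata4 and Gata6, and among them for Gata5.

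RefSeq promoter sequences of GRCm38.p6 were used for 5 of the 8 members. The search for members skipped a chromosome that the count over all windows did not skip, so a member without a window need not lack a RefSeq promoter. Those of the 3 matched members on the higher side are shown, Gata2 with both of its annotated starts, because Etv2, the factor whose reporter was sorted, belongs to the ETS family, whose members bind a GGAA core. Each sequence is the 250 bases before the start, read 5′ to 3′ on the gene's strand, and capitals mark a match to the ETS motif, AGGAAG or CGGAAG, or to the GATA motif given below the sequences.
Gata2, chr6:88193641-88193890, plus strand: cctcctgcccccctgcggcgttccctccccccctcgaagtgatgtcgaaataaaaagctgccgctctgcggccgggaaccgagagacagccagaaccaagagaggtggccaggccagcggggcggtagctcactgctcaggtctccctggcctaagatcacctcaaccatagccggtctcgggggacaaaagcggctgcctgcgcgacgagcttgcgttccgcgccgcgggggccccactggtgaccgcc
Gata2, chr6:88198414-88198663, plus strand: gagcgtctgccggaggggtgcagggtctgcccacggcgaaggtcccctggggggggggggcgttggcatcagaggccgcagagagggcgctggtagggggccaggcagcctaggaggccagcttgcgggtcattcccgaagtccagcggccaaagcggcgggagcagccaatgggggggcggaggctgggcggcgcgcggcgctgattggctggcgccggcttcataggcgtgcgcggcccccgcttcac
Gata1, chrX:7967911-7968160, minus strand: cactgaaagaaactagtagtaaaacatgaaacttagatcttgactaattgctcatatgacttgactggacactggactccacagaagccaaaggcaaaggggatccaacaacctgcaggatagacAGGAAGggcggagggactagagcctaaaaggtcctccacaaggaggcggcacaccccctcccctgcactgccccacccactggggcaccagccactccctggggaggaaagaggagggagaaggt
Zfpm1, chr8:122281891-122282140, plus strand: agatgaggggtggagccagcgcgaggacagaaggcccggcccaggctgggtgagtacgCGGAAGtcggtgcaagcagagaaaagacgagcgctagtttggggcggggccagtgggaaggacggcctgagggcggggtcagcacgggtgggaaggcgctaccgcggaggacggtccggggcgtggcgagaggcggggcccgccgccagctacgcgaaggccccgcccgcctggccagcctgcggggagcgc

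The ETS motif, searched on both strands, stood at 1 place in the Gata1 window, 125 to 120 bases before the start, and at 1 place in the Zfpm1 window, 192 to 187 bases before it. It was not in either Gata2 window, nor in the windows of Gata3 and Gata5. Of the 32851 promoter windows of this length, 39.2% held it. The GATA motif, searched as AGATAA or TGATAA on both strands, was in none of the 6 windows of the 5 members and in 16.6% of all windows. The ETS and GATA motifs can overlap by their end letters, and no window held both. A match or its absence describes only these letters in these windows.

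Gata2, which acts in blood and endothelial progenitors, measured 9.08 and 9.35 in Venus negative and 9.90 and 10.05 in Venus positive cells. Both positive arrays lay above both negative ones. The difference was 0.76 (SE 0.13, interval 0.41 to 1.11, limma adjusted p = 0.131), and within the arrays numbered 1 and 2 it was 0.83 and 0.70. A further Gata2 probe set, dimmer at 7.77 and 7.84 against 8.64 and 8.75, gave the same direction with a difference of 0.89 (SE 0.10). Gata2 stood at rank 266 of the 18193 genes by moderated t for higher expression. The arrays are bulk samples of sorted cells, so more cells expressing a gene and more RNA per cell cannot be told apart, here or for any other member.

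Gata1, the master factor of red cells and megakaryocytes, measured 5.52 and 5.88 in Venus negative and 6.0 and 5.99 in Venus positive cells. The array medians over all probe sets ran from 5.46 to 5.52, and Gata1 lay above the median of each array. Over the brightest probe sets of the genes the medians ran from 6.59 to 6.70, so among genes Gata1 was dim. Its arrays were apart in the higher direction, but the difference of 0.29 (SE 0.15, interval -0.09 to 0.68) was close to the gap of 0.36 between the negative arrays. Its limma adjusted p was 0.553, and the difference was 0.48 within arrays 1 and 0.11 within arrays 2.

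Gata3, a factor of T cells, sympathetic neurons and ectoderm, measured 6.89 and 7.07 in Venus negative and 6.63 and 6.37 in Venus positive cells. Unlike Gata2 it was lower in the positive cells, by a difference of -0.48 (SE 0.13, interval -0.83 to -0.13, limma adjusted p = 0.274), with arrays apart. Its size varied with the array number, at -0.26 within arrays 1 and -0.70 within arrays 2. It was read on 1 probe set.

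Among the factors of heart and lateral mesoderm, Gata4 measured 8.12 and 7.81 in Venus negative and 7.36 and 7.17 in Venus positive cells. The arrays did not overlap, and the positive cells were 1.63-fold lower. The difference was -0.70 (SE 0.15, interval -1.09 to -0.32, limma adjusted p = 0.166), at -0.76 and -0.64 within the arrays numbered 1 and 2. The other Gata4 probe set was dim, at 4.55 and 4.23 against 4.41 and 4.20, and gave -0.08 (SE 0.16) with overlapping arrays. Averaged over both probe sets the Gata4 difference was therefore -0.39.

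Gata6, a factor of mesoderm, heart and extraembryonic endoderm, measured 11.03 and 11.00 in Venus negative and 10.67 and 10.59 in Venus positive cells. Its replicates were close together, and the lower level in the positive cells exceeded the spread between them. The difference was -0.38 (SE 0.09, interval -0.62 to -0.15, limma adjusted p = 0.204), or 1.31-fold, and -0.36 and -0.40 within arrays 1 and 2. A further probe set at 8.66 and 8.74 against 8.40 and 8.51 differed by -0.25 (SE 0.10) in the same direction. The third, at 6.34 and 6.32 against 6.39 and 6.31, overlapped and differed by 0.02 (SE 0.09). With the mean over the 3 probe sets Gata6 differed by -0.20.

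Gata5, a factor of endocardium and early heart mesoderm, measured 4.66 and 5.08 in Venus negative and 4.58 and 5.00 in Venus positive cells. All values lay below the array medians, and the populations overlapped. The difference of -0.08 (SE 0.21, interval -0.63 to 0.48, limma adjusted p = 0.953) was smaller than the gaps of 0.42 and 0.41 between arrays of one population. A second dim probe set measured 4.68 and 4.80 against 4.39 and 4.36, with arrays apart and a difference of -0.37 (SE 0.10), so the probe sets of Gata5 differed.

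Of the FOG genes, Zfpm1 measured 9.09 and 9.12 in Venus negative and 9.22 and 9.34 in Venus positive cells. The positive arrays lay narrowly above the negative ones, with a difference of 0.17 (SE 0.09, interval -0.07 to 0.42, limma adjusted p = 0.589). Its upper bound corresponds to 1.34-fold. The dimmer Zfpm1 probe set, at 6.01 and 5.99 against 6.15 and 5.87, overlapped and differed by 0.01 (SE 0.13), and the mean over both gave 0.09.

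Zfpm2 measured 6.29 and 6.27 in Venus negative and 7.53 and 7.44 in Venus positive cells. The arrays of a population lay within 0.02 and 0.10 of each other, far less than the gap between the populations. The difference was 1.21 (SE 0.09, interval 0.97 to 1.44, or 1.95- to 2.72-fold), and 1.24 and 1.17 within arrays 1 and 2. At rank 6 of 18193 by moderated t for higher expression, Zfpm2 was among the 66 genes that shared the smallest limma adjusted p, 0.067. It was the only member at least 2-fold apart, a size reached in the higher direction by 0.599% of genes. Where limma's prior variance followed the mean level, with robust estimation, Zfpm2 was called higher (adjusted p = 0.0391), as 1 of the 8 members, where 0.445% of all genes were called higher and 0.17% lower. It was also called when the test was limited to genes averaging 6 or more (limma adjusted p = 0.0429). The other Zfpm2 probe set was dimmer, at 5.73 and 5.87 against 6.06 and 5.98, and differed by 0.22 (SE 0.11). The mean over both probe sets was 0.71 with a limma adjusted p of 0.0875, so the size of the Zfpm2 difference depends on the probe set read.

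**Figure D2:**
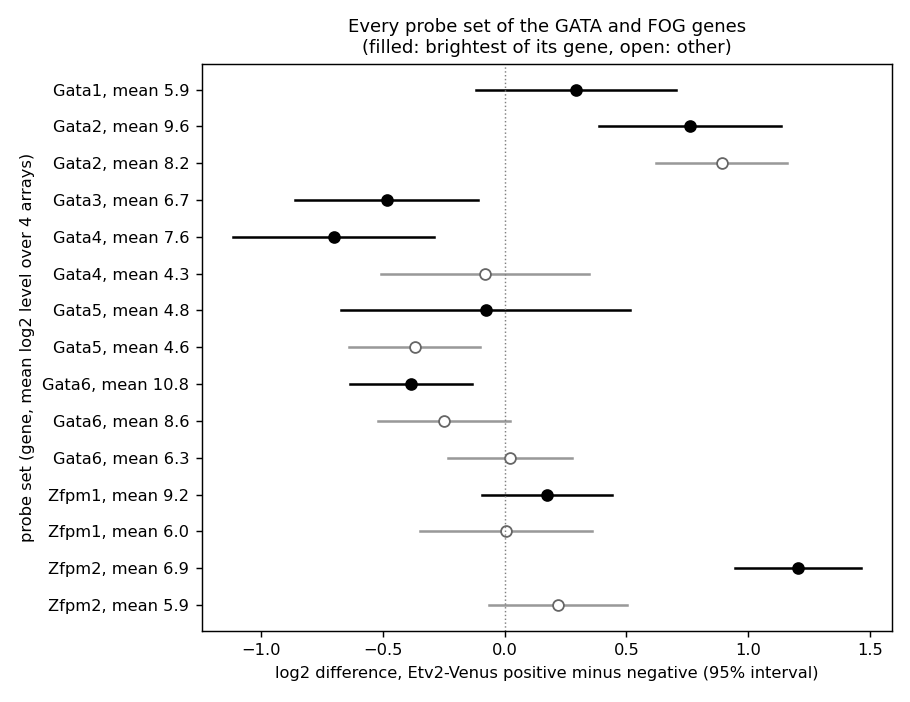
Log2 difference (positive minus negative) of all 15 probe sets of the 8 genes with 95% intervals of a limma fit over every probe set; filled points are the brightest probe set of a gene, open points the others, and labels give the mean log2 level. Gata2 is higher on both of its probe sets, while the dim second probe sets of Gata4 and Zfpm2 lie closer to 0 than the bright ones.

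Relations between factor and cofactor were read as log2 ratios within each array, for 7 pairs of members. Zfpm2 minus Gata4 was -1.83 and -1.54 in Venus negative and 0.18 and 0.27 in Venus positive cells, a shift of 1.91. Zfpm2 minus Gata6 shifted by 1.59, from -4.74 and -4.73 to -3.13 and -3.16. On their brightest probe sets the FOG2 gene and its GATA4 and GATA6 partners thus changed unequally between the populations. The other probe sets differed by 0.22 for Zfpm2, -0.08 for Gata4 and -0.25 and 0.02 for Gata6. Zfpm1 minus Gata1 was 3.57 and 3.23 against 3.21 and 3.35 and overlapped, with a shift of -0.12. Zfpm1 minus Gata2 was 0.01 and -0.23 against -0.69 and -0.71, a shift of -0.59. Gata4 minus Gata6 shifted by -0.32 and Gata4 minus Gata5 by -0.62. Of the 3 pairs of GATA genes, Gata2 minus Gata4 shifted most, by 1.46, from 0.96 and 1.54 to 2.55 and 2.88. An exact two-sided permutation test of 2 arrays against 2 cannot go below p = 0.333, which 5 of the 7 pairs gave. Zfpm1 minus Gata1 and Gata4 minus Gata5 overlapped, each with exact p = 0.667. Adjusted over the 7 pairs the smallest exact p was 0.467. The levels of different probe sets are not comparable, so only the shifts carry information, and their size depends on the probe set read.

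**Figure D3:**
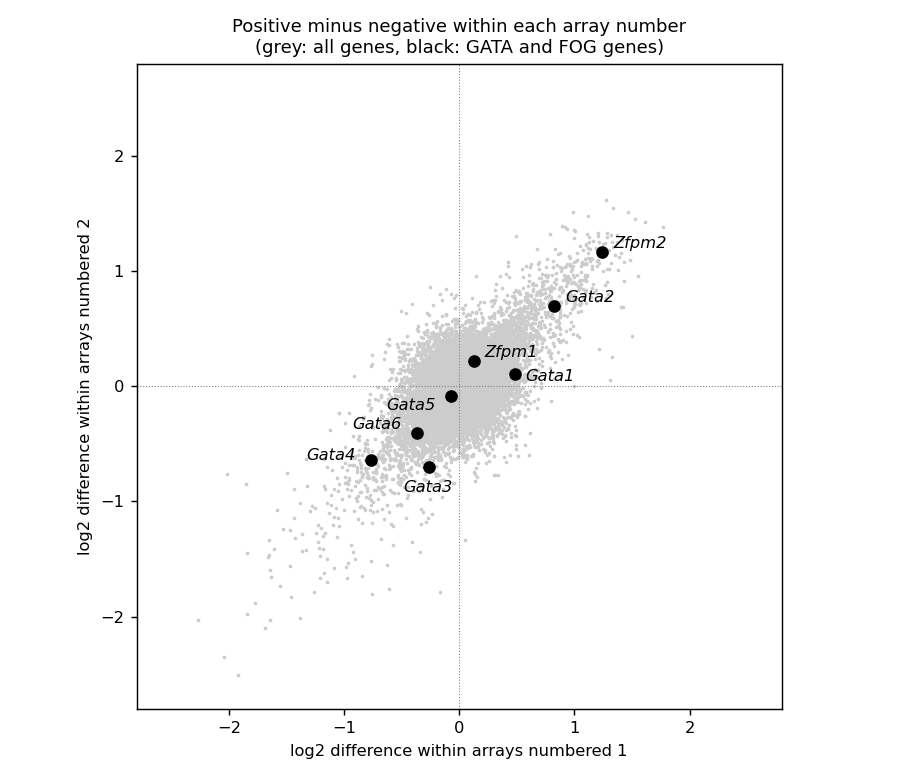
Log2 difference (positive minus negative) within the arrays numbered 1 (x axis) against that within the arrays numbered 2 (y axis), with all 18193 genes in grey and the 8 GATA and FOG genes in black. All 8 members keep their sign in both, and Gata3 and Gata1 differ most between the array numbers.

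The genes whose pattern over the 4 arrays was most like that of a member were found by the root mean square distance between array values centred on each gene's mean, among 10178 other genes with a mean of at least 6. For Zfpm2 the nearest were Dysf (distance 0.0137 log2 units), the endothelial repressor Bcl6b (0.0225) and the endothelial factor Sox18 (0.0275), with differences of 1.20, 1.24 and 1.22. For Gata2 they were Iqgap2 (0.0245), the ETS family repressor Etv6 (0.0384) and the kinetochore gene Ndc80 (0.0390). Gata4 was nearest to Pid1 (0.0189), the desmosomal gene Dsp (0.0335) and G0s2 (0.0460), with differences from -0.77 to -0.66. Gata3 was nearest to Ppfia4, Fhdc1 and Sh3bp1, and Gata6 to Pip4k2c, Plekhg2 and 1700086P04Rik. Zfpm1, whose difference was small, was nearest to Plekhf2, Nt5dc3 and Gripap1. With 4 arrays many genes come this close, and the distances are a description.

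Genes that act with the members were read from lists by their known roles. Of 14 partners of GATA1 and GATA2 in blood and vessel progenitors, 0 passed a limma adjusted p of 0.05; 7 were higher and 0 lower at an unadjusted p under 0.05, beside 7.07% and 4.64% of all genes. Their median difference was 0.30, or 0.55 without positive array 1 and 0.19 without positive array 2. Fli1 and Erg, ETS factors that share sites with GATA2, differed by 1.44 (SE 0.10) and 1.27 (SE 0.09), and Lmo2, the bridge between GATA and E-box factors, by 0.98 (SE 0.09). Tal1, the E-box factor of the same complex and chosen after its value was seen, differed by 1.02 (SE 0.13), from 11.24 and 11.06 to 12.30 and 12.05. Ldb1, which binds Lmo2 in that complex and was also chosen after its value was seen, differed by 0.05 (SE 0.12). The erythroid factor Klf1 averaged 4.96 without and 4.78 with Venus, below the array medians.

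Targets of GATA1 and GATA2 were read for red cells, for megakaryocytes and mast cells, and for endothelium. Of 14 measured erythroid targets of GATA1, 0 were past an unadjusted p of 0.05 in either direction and the median was -0.04. Only 3 of them averaged 6 or more, with a median of 0.06, and for the dimmer ones little change could be seen. The embryonic globin Hba-x measured 5.38 and 5.38 in Venus negative and 5.55 and 5.74 in Venus positive cells, while the globin Hbb-bh1 measured 5.75 and 5.36 against 5.23 and 5.07. Of 9 measured megakaryocyte and mast cell targets 3 were higher at that p and 0 lower, with a median of 0.11, or 0.26 without positive array 2. These were the platelet protein Plek, at 0.89 (SE 0.09), the stem cell factor receptor Kit, at 0.66 (SE 0.10), and the integrin Itga2b, at 0.70 (SE 0.11). They were also the only 3 of the list with a mean of at least 6, so the median at that level, 0.70, was the value of Itga2b. Of 10 endothelial targets of GATA2, 5 were higher and 1 lower, with a median of 0.35. That median was 0.90 over the members averaging 6 or more and 0.21 without positive array 2. Of all genes 7.07% were higher and 4.64% lower at that p. Tek, the angiopoietin receptor, differed by 1.34 (SE 0.14), Hhex, a homeobox factor of blood and vessel precursors, by 1.07 (SE 0.09) and Nos3, the endothelial nitric oxide synthase, by 1.04 (SE 0.09). No gene of these lists passed after adjustment over all genes.

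Of 18 cardiac partners and targets of GATA4, GATA5 and GATA6, 7 were lower and 0 higher at an unadjusted p under 0.05, and 0 passed after limma adjustment. Of all genes 4.64% were lower and 7.07% higher at that p. The median of the list was -0.28, and it was -0.13 without negative array 2, -0.43 without negative array 1 and -0.15 with probe sets averaged. Hand2, a partner of GATA4 in heart mesoderm, measured 9.14 and 9.38 in Venus negative and 8.18 and 8.43 in Venus positive cells. Actc1, a sarcomeric actin, differed by -1.33 (SE 0.24) and the myosin light chain Myl7 by -0.57 (SE 0.10). The heart factor Nkx2-5 and the myosin Myh6, both chosen after their values were seen, differed by 0.00 (SE 0.11 and 0.09). Myh6 and the natriuretic peptide gene Nppa, also chosen after its value was seen, were dim, averaging 3.45 and 3.15 with Venus.

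Of 13 NuRD subunits, which FOG proteins recruit, 1 was higher and 2 lower at an unadjusted p under 0.05, beside 7.07% and 4.64% of all genes. Arrays were apart for 2 in the higher and 4 in the lower direction, beside 22.4% and 17% of all genes. The median of 0.03 turned to -0.07 when the probe sets of a gene were averaged and to -0.05 without negative array 2 or positive array 1. Mbd2, a reader of methylated DNA, differed by 0.50 (SE 0.10), Mta3 by -0.49 (SE 0.12) and the remodeller Chd3 by -0.27 (SE 0.10). Ctbp1 and Ctbp2, corepressors bound by FOG proteins, differed by 0.05 (SE 0.10) and 0.02 (SE 0.11). The nuclear receptors Nr2f1 and Nr2f2 of the same list differed by -0.27 (SE 0.27) and 0.01 (SE 0.10). Of 9 other genes with a GATA-type zinc finger, 1 was lower, Mta3, which is also a NuRD subunit, and the next by p were Rere, at -0.20 (SE 0.09), and Mta1, at -0.09 (SE 0.10). Of 15 genes of BMP signalling, which acts upstream of GATA genes in mesoderm, 2 were higher and 3 lower at that p. The ligand Bmp4 differed by -0.78 (SE 0.09), Bmp7 by -0.32 (SE 0.09) and Bmp2 by 0.32 (SE 0.09), so the ligands did not move one way.

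**Figure D4:**
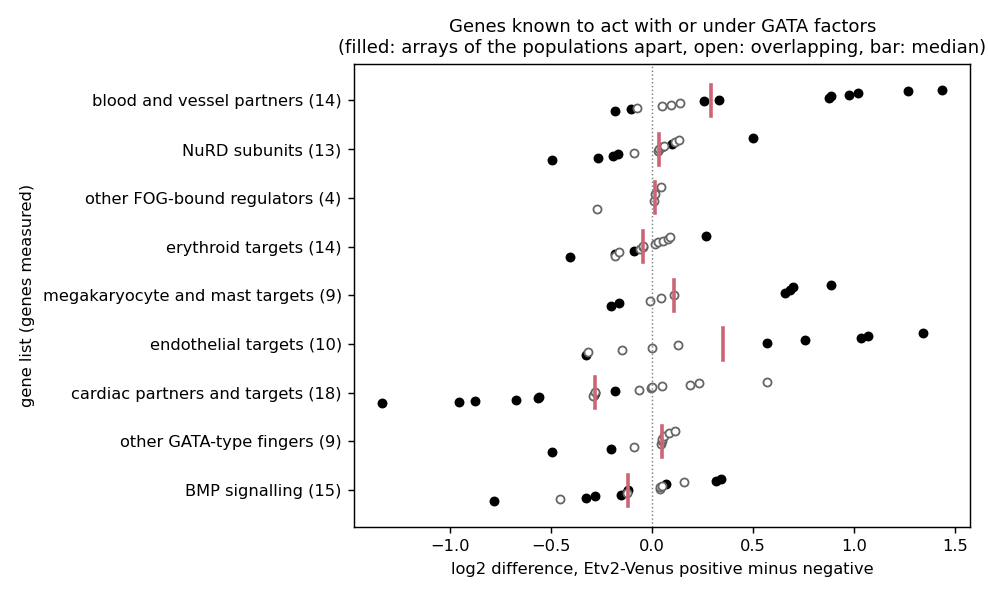
Log2 difference (positive minus negative, x axis) of the measured genes of 9 lists; filled points have arrays of the populations apart, open points overlap and red bars are list medians. Blood and vessel partners and endothelial targets reach above 1, with medians of 0.30 and 0.35, and cardiac partners and targets reach below -1, with a median of -0.28.

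The cell types that express these factors were followed by their markers, whose part in the differences of the members was not tested. All heart muscle markers are also in the cardiac list, and all erythroid markers are in the erythroid list. Pecam1, Tek and Emcn are in the endothelial target list too, so these markers are not separate evidence. Kdr averaged 12.60 without and 12.73 with Venus. Etv2 measured 12.03 and 11.87 in Venus negative and 12.64 and 12.41 in Venus positive cells, a difference of 0.57 (SE 0.13). Its RNA was thus bright in both populations, and the Venus negative cells did not lack it. Of the other mesoderm markers, Aplnr differed by 0.14 (SE 0.12), while Mesp1 and Pdgfra, genes of early mesoderm, differed by -1.64 (SE 0.11) and -1.65 (SE 0.38), with arrays apart, beside the lower Gata4 and Gata6. The sum of the 5 mesoderm levels was 59.1 and 58.2 on the negative arrays against 56.8 and 55.5. That lower sum came from Mesp1 and Pdgfra, as the other 3 differed above 0 and the median was 0.13. Of all genes 22.4% had arrays apart in the higher and 17% in the lower direction. Of 6 endothelial markers 5 had arrays apart in the higher direction, and the sum of their log2 levels was 38.5 on both negative arrays, and the positive arrays had 43.0 and 43.9, beside the higher Zfpm2 and Gata2. Of 6 trophoblast markers, a cell type that expresses Gata2 and Gata3, 4 were apart in the lower direction and 0 higher, with sums of 37.0 and 37.2 against 34.5 and 34.8. One of those lower was Hand1, which is also in the cardiac list. The 2 that overlapped were Elf5, which was dim and differed by -0.11 (SE 0.18), and Plac1, at 0.27 (SE 0.18). Of 8 markers of primitive and visceral endoderm, which expresses Gata4 and Gata6, 1 was apart in each direction, with sums of 46.9 and 45.6 against 47.8 and 46.5. The one higher was Sox17, which endothelium also expresses. Among the other endoderm markers Afp was the dimmest by mean, between 3.71 and 4.19 on the 4 arrays. Ttr was the brightest of them by mean, between 6.33 and 6.46, and overlapped between the populations. Of 6 heart muscle markers 2, Actc1 and Myl7, were apart lower and 4 overlapped, with sums of 38.8 and 37.9 against 37.9 and 36.7. The heart muscle differences were above 0 for 3 and below 0 for 3. Tnnt2, at 0.57 (SE 0.31), and Myh7, at 0.23 (SE 0.17), lay furthest above 0. Of 5 measured primitive erythroid markers 1 was apart in each direction. Of 8 stromal markers 4 were apart lower, with sums of 53.6 and 50.6 against 51.7 and 48.6, so the arrays numbered 1 were higher in both populations.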

How the data were processed

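The authors deposited log2 expression per probe set, computed by RMA under R 2.8.0 according to the submitters' processing notes. The range of 2.16 to 14.93 gave the log base. RMA normalizes between arrays, which takes out any change shared by all genes, and it compresses differences near background. Detection calls were not used here, and the small number of arrays limits the precision.

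Groups came from the sample titles. Of 45101 probe sets, 34945 had 1 symbol, in an annotation checked by Entrez identifier against RefSeq genes of GRCm38.p6. Each gene was represented by its brightest such probe set. A limma 3.58.1 model (lmFit, eBayes; R 4.3.3) with a term for the group alone was fitted to all 18193 genes, with 2 residual and 2.68 prior degrees of freedom, and Benjamini-Hochberg adjustment over all genes at 0.05, two-sided. Values of further probe sets come from a separate fit of the same model over all 34945 single-symbol probe sets, so the SEs of the 2 fits differ slightly for the same probe set. Arrays are apart where all values of one population exceed all of the other.

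The members and lists were chosen with earlier results of these data known, and a list's direction is not independent evidence. Of 104 listed genes 100 were measured. The text names all members, the 3 genes of smallest p per list, and the 3 nearest genes per member whose arrays are apart and whose higher group averages 6 or more. The fit was tested on simulated data with known changes. The alternatives were every probe set, the mean over probe sets, genes averaging 6 or more, quantile normalization, median centring, a mean-variance trend (robust), the array number as a block without and with the trend, and leaving out each array.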

Additional observations from a re-analysis of the deposited data

How the results depend on the processing

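With the array number as a replicate block limma called 0 genes higher and 0 lower, as without it, and 2068 and 1610 genes were at an unadjusted p under 0.05. Array 1 minus array 2 differences correlated between the populations over 18193 genes (r = 0.54, genes not being replicates), and the labels do not say that a number marks a shared culture. The mean-variance trend with robust estimation gave 81 and 31 calls, the block with that trend 616 and 361, and genes with a mean of at least 6 gave 66 and 13; the last tests fewer genes, and for the others the cause was not tested. Zfpm2, at 1.21, was called in these 3 settings, and Gata2 at 0.76 (limma adjusted p = 0.0169), Gata4 at -0.70 (0.0278) and Gata6 at -0.38 (0.0287) only with the block and trend together. Gata5 turned sign without array 2 of the negative cells (0.13) and without array 1 of the positive cells (0.13), with a range of -0.29 to 0.13 over the arrays left out. Gata1 ranged from 0.11 to 0.48 and Gata3 from -0.61 to -0.35. The other members kept their sign in every setting, and over all settings the medians of 6 of the 9 lists moved at least once by more than the spread between arrays. Dim probe sets of Gata1 and Gata5 limit what can be seen.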
